A study of Mus musculus with 12 samples.

Results

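The 35 genes described here act in DNA replication and mitosis, and they were followed across sorted mouse CD4 T cell subsets: the helicase subunits and loading factors Mcm2 to Mcm7, Cdc6, Cdt1 and Gins2, the DNA synthesis genes Pcna, Tyms, Rrm1, Rrm2, Tk1 and Hells, the cyclin E genes Ccne1 and Ccne2, and the mitosis genes Ccna2, Ccnb1, Ccnb2, Cdk1, Plk1, Bub1, Bub1b, Aurkb, Birc5, Cenpe, Cenpf, Tpx2, Kif20a, Stmn1, Ube2c, Cdc20, Mki67 and Top2a. The genes were taken by name from a fixed list and not by a cut on their values. The list itself was chosen with earlier results of these data known. All 35 were found once among the 54532 entries of the count table, and all 35 passed the filter on low counts that left 13393 genes for testing. They are described below as 17 replication members and 18 mitosis members.

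RNA was sequenced from 12 libraries, 3 of each of 4 subsets, sorted from mixed spleen and lymph node of untreated mice without culture. All 4 subsets had the genotype wildtype C57BL/6 Foxp3-GFP polyclonal, and no age is given in the labels. Naive cells were CD44low. Teff (effector) cells were CD44high, FOXP3 negative, CD73low and FR4low. Anergic cells, which are antigen-experienced but respond poorly to antigen, were CD44high, FOXP3 negative, CD73high, FR4high and NRP1 positive. Treg (regulatory) cells were FOXP3 and CD25 positive. Nothing in the labels ties the replicates to different animals or pools. The p-values therefore rest on library-to-library spread that may be technical. No batch is named.

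The sort and the libraries were checked first. Libraries held 6909035 to 9527897 counts, and log2 levels across genes correlated at 0.982 to 0.987 within a subset and 0.889 to 0.952 between subsets. Foxp3 averaged 543.3 CPM in Treg, 18.2 CPM in Anergic, 0.735 CPM in Teff and 1.36 CPM in Naive libraries, where CPM stands for counts scaled to a common library size after TMM scaling (a correction of library sizes for RNA composition). Izumo1r, which encodes FR4, was 424.1 CPM in Anergic against 73.8 CPM in Teff libraries. Anergic replicate 3 had a TMM factor of 0.871 against 0.955 to 1.06 in the other 11 libraries, and the mitochondrial ribosomal RNAs mt-Rnr1 and mt-Rnr2 took 13.9% to 16.2% of Anergic counts against 10.1% to 12.3% elsewhere. The defining germinal centre B cell markers Gcsam and Rgs13 were at 0 in every library. The list of 5 germinal centre B cell genes, most of it S1pr2, summed to 3.49 to 5.33 CPM in Naive, 7.52 to 13.4 CPM in Teff, 11.3 to 15.7 CPM in Anergic and 7.05 to 8.99 CPM in Treg libraries, and its part in the members' differences was not tested. The 5 erythroid markers summed to at most 0.759 CPM.

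Replication starts when CDC6 and CDT1 load a ring of MCM2 to MCM7 subunits at origins, where GINS later helps to activate it as the replicative helicase. Ribonucleotide reductase, thymidylate synthase and thymidine kinase supply nucleotides, PCNA clamps the polymerase to DNA, and cyclin E drives entry into S phase. In mitosis, cyclins A and B with CDK1, PLK1 and Aurora B build the spindle, BUB1 and BUBR1 (the product of Bub1b) check chromosome attachment, and CDC20 and UBE2C serve the anaphase-promoting ubiquitin ligase. Resting T cells do not divide and keep mitosis genes low. Replication genes are known targets of E2F factors, while many mitosis genes carry a cell cycle homology region (CHR) bound by the DREAM and MuvB complexes.

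The members' promoters were searched for the letters of both kinds of site. RefSeq promoter windows of GRCm38.p6, from 250 bases before to 50 bases after the start, were matched for 27 of the 35 members. The E2F letters TTTCCCGC or TTTGGCGC, on either strand, stood in 7 of 14 matched replication members (Cdc6, Cdt1, Hells, Mcm3, Mcm5, Mcm6 and Mcm7) and in 0 of 13 mitosis members, and in 1.56% of all 32851 windows of that length. The CHR letters TTTGAA, on either strand, stood in 9 of 13 mitosis members (Bub1b, Ccnb2, Cdc20, Cdk1, Cenpf, Mki67, Plk1, Top2a and Ube2c), in 1 of 14 replication members (Mcm2) and in 17.9% of all windows. The letters CCAAT, on either strand, stood in 12 of 13 mitosis members, 8 of 14 replication members and 37.4% of all windows. None of these motifs contains another. A match is a description of the letters, not evidence of binding. Stretches before the RefSeq start, free of annotated exons, are shown for 5 members that the results turn on. They run 5′ to 3′ on the gene's strand, with E2F letters (Mcm6 and Cdc6) or CHR letters (Mki67, Cdk1 and Cdc20) in capitals. The Cdc6 stretch lies inside the gene as GENCODE annotates it, from chr11:98907801 on. The Mcm6 stretch lies at chr1:128359706-128359905 (minus strand), Cdc6 at chr11:98907982-98908150 (plus strand), Mki67 at chr7:135716380-135716579 (minus strand), Cdk1 at chr10:69352939-69353112 (minus strand) and Cdc20 at chr4:118437353-118437543 (minus strand).
Mcm6: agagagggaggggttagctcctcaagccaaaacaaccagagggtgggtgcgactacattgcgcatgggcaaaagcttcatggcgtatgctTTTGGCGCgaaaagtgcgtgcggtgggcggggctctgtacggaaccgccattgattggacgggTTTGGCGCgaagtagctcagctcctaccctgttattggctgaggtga
Cdc6: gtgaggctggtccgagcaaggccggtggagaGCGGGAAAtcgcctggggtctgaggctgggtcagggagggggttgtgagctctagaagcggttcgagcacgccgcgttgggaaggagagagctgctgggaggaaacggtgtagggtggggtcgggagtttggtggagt
Mki67: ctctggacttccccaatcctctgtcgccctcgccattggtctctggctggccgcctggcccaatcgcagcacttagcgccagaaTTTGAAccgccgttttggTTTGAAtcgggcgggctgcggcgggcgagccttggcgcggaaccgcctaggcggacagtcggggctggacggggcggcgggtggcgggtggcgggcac
Cdk1: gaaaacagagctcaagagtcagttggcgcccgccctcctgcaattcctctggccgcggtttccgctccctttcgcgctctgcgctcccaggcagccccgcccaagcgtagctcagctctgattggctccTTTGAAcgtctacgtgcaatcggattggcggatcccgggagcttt
Cdc20: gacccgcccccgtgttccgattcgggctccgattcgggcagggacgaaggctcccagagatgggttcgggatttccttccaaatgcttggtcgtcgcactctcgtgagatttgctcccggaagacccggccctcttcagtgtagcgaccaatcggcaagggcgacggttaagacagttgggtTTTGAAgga
With -1 as the last base before the start, the E2F letters begin at -110 and -47 in Mcm6 and, on the other strand as GCGGGAAA, at -138 in Cdc6. The CHR letters begin at -116 and -98 in Mki67, at -71 in Cdk1 (and at -15, past the printed stretch) and at -18 in Cdc20.

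Most mitosis members were at very low levels in Naive cells and clearly present in the other subsets, whereas Mcm2 to Mcm7 and Pcna were well expressed in Naive cells too. The summed level of the 18 mitosis members was 40.3 ± 1.05 CPM in Naive (mean ± SD, n = 3 here and below), 392.0 ± 37.1 CPM in Teff, 262.9 ± 60.6 CPM in Anergic and 217.0 ± 6.42 CPM in Treg libraries. The summed level of the 17 replication members was 483.7 ± 6.22 CPM in Naive, 682.5 ± 38.5 CPM in Teff, 637.2 ± 35.6 CPM in Anergic and 618.8 ± 16.3 CPM in Treg libraries. Teff cells had 9.73 times the Naive sum for mitosis and 1.41 times for replication. In bulk RNA, fewer cycling cells and less RNA per cycling cell cannot be told apart.

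**Figure D1:**
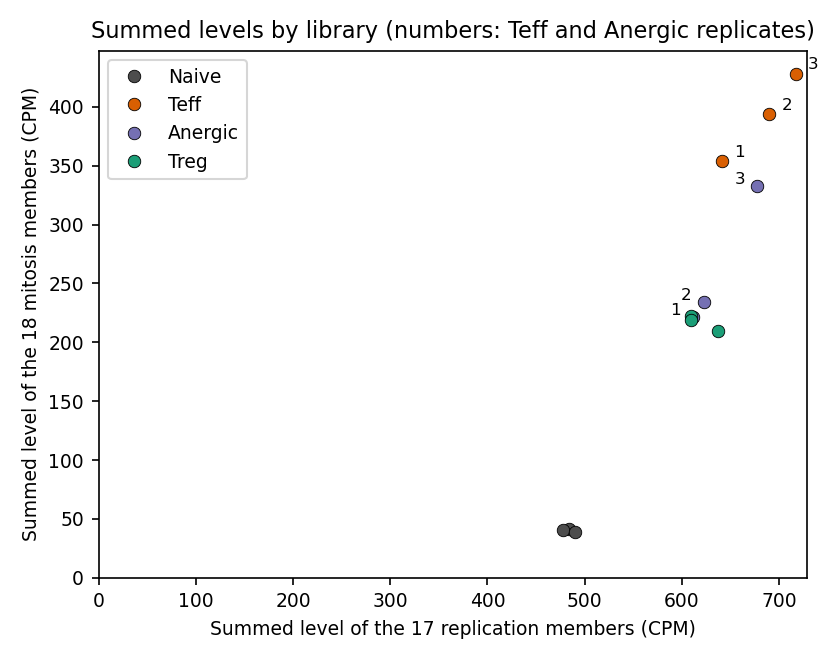
Summed TMM-scaled CPM of the 18 mitosis members (y axis) against the 17 replication members (x axis), 1 point per library, with replicate numbers beside the Teff and Anergic points. Naive libraries sit at 39.2 to 41.2 CPM of mitosis members, Treg at 209.9 to 222.3 CPM and Teff at 354.0 to 428.1 CPM, and Anergic replicate 3 stands apart from the other Anergic libraries.

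**Figure D2:**
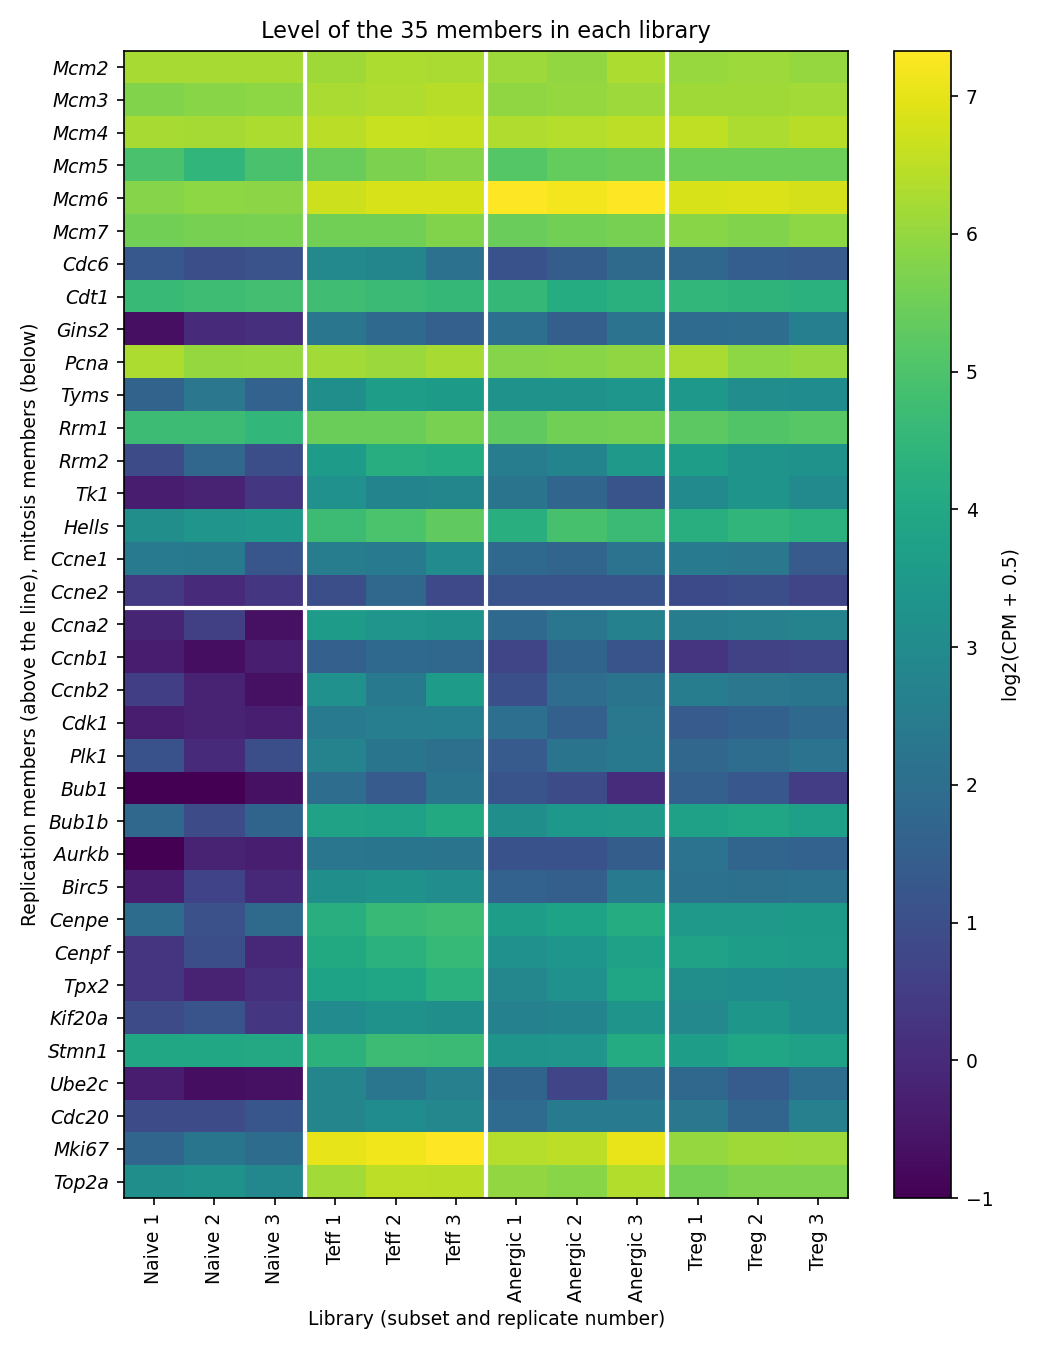
Level of each member (rows) in each library (columns) as log2(CPM + 0.5), replication members above the white line and mitosis members below it. Most mitosis members are dark in the 3 Naive columns, while Mcm2 to Mcm7 and Pcna are bright in all 12 columns.

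Per kilobase of exon, Pcna was the most abundant member in Naive (28.8 CPM per kb), Teff (29.7 CPM per kb) and Treg (28.0 CPM per kb) cells, and Mcm6 in Anergic cells (33.1 CPM per kb). Bub1 was the least abundant in Naive (0.0116 CPM per kb) and Anergic cells (0.284 CPM per kb), Ccne2 in Teff (0.549 CPM per kb) and Ccnb1 in Treg cells (0.229 CPM per kb). Teff had the highest mean of the 4 subsets for 18 of 18 mitosis members and 12 of 17 replication members. The other 5 replication members were highest elsewhere: Mcm6 in Anergic, Cdt1 in Naive, and Mcm7, Gins2 and Tk1 in Treg cells. Naive had the lowest mean for 17 of 18 mitosis members and 12 of 17 replication members. Mcm7, Cdt1, Pcna, Ccne1 and Stmn1 had their lowest mean in Anergic cells, and Mcm2 in Treg cells.

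Teff against Naive cells gave the widest contrast. With edgeR's quasi-likelihood test adjusted over all 13393 genes, 30 of 35 members were higher in Teff cells and 0 were lower, against 19.2% and 15.7% of all tested genes. No member was lower at an unadjusted p under 0.05 either (0 by edgeR and 0 by DESeq2). All 18 mitosis members rose (median log2 fold change 3.84, against 0.01 over all tested genes), as did 12 of 17 replication members (median 0.89). Mcm2, Mcm7, Cdt1, Pcna and Ccne1 did not pass. The libraries of the 2 subsets did not overlap for any of the 30. Overlap was read from the same libraries as the test, so it is no separate support, and its share over all genes was not computed.

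Mki67, which coats mitotic chromosomes, stood at 2.76, 4.21 and 3.34 CPM in the Naive libraries and 129.8, 141.9 and 160.3 CPM in the Teff libraries. Every Teff library was far above every Naive one, and the log2 fold change was 5.37 ± 0.183 (SE, adjusted p = 5.87e-17). Top2a, the topoisomerase that untangles sister chromatids, was 8.41, 9.29 and 6.83 CPM in Naive and 71.9, 90.7 and 87.5 CPM in Teff libraries, a log2 fold change of 3.33 ± 0.144 (adjusted p = 4.82e-15). Tpx2, a spindle assembly factor, went from 0.556 ± 0.165 CPM to 16.02 ± 3.17 CPM (log2 fold change 4.83 ± 0.346, adjusted p = 5.13e-11). Bub1, a checkpoint kinase, had 1 count in all 3 Naive libraries and 79 in the Teff libraries. Its ratio was 70.6, with a 95% interval of 12.3 to 2821 that covers counting error only (adjusted p = 3.16e-06).

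The replication members differed widely among themselves. Mcm6 rose from 55.4, 60.5 and 59.0 CPM in Naive to 103.3, 114.0 and 111.9 CPM in Teff libraries (log2 fold change 0.91 ± 0.0703, adjusted p = 2.03e-10). Mcm2 was 75.1, 75.1 and 75.6 CPM in Naive and 70.4, 78.1 and 77.4 CPM in Teff libraries, so the 2 subsets overlapped (log2 fold change -0.00 ± 0.0758, adjusted p = 0.998). Pcna was likewise 77.8, 64.4 and 65.0 CPM against 72.5, 66.4 and 75.0 CPM (log2 fold change 0.05 ± 0.0900, adjusted p = 0.74). Reads of Pcna and its pseudogene may be shared, the entry Pcna-ps2 holding 160 counts against 6472 for Pcna over all libraries. The same holds for Ccnb1-ps (40 counts against 145 for Ccnb1), Ccnb2-ps (10 against 411 for Ccnb2) and Tyms-ps (4 against 792 for Tyms). The smallest passing changes were those of Mcm4 (log2 fold change 0.30 ± 0.0746, adjusted p = 0.0023), Mcm3 (0.52 ± 0.0724, adjusted p = 3.54e-06) and the microtubule regulator Stmn1 (0.61 ± 0.165, adjusted p = 0.00545). Nucleotide supply genes moved further: Tk1, the salvage thymidine kinase, was 0.276, 0.372 and 0.759 CPM in Naive (10 counts in all) and 8.81, 6.20 and 6.50 CPM in Teff libraries. Rrm2, the regulated subunit of ribonucleotide reductase, went from 1.92 ± 0.812 to 15.4 ± 3.33 CPM, and Rrm1, its partner, from 24.6 ± 1.85 to 45.7 ± 3.53 CPM. Tyms went from 3.22 ± 1.07 to 10.6 ± 1.89 CPM and the chromatin remodeller Hells from 9.58 ± 1.40 to 31.8 ± 6.69 CPM. Ccne2, a cyclin E, went from 0.694 ± 0.175 to 1.92 ± 0.921 CPM, a call lost without Naive replicate 2 (0.0738) or Teff replicate 2 (0.132).

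**Figure D3:**
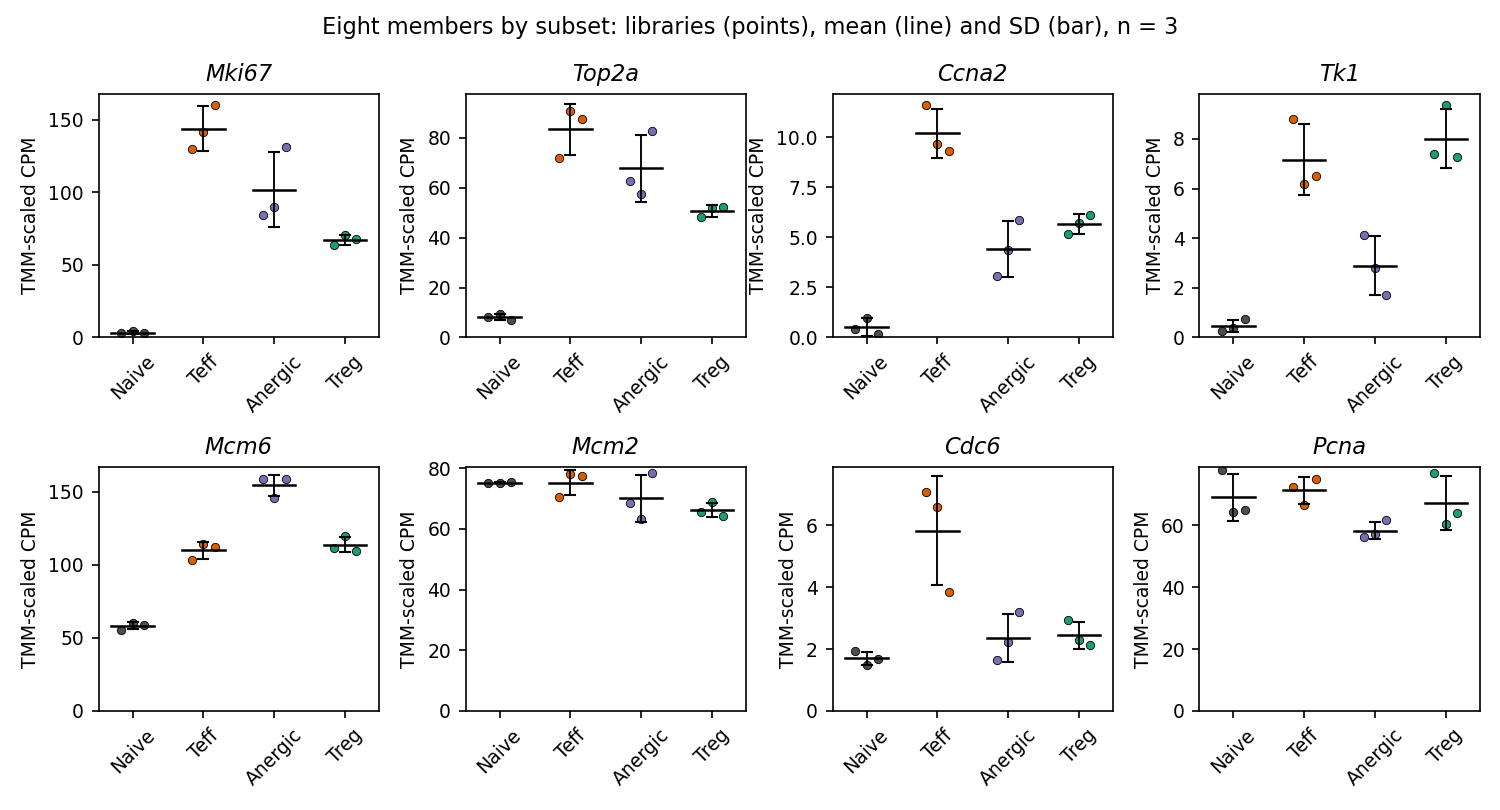
TMM-scaled CPM of 8 members by subset (points, libraries; lines, mean; bars, SD), each axis starting at 0. Mki67, Top2a, Ccna2 and Tk1 are near 0 in Naive libraries, Mcm2 and Pcna overlap between Naive and Teff libraries, and Mcm6 is highest in Anergic libraries.

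Anergic cells had 27 members higher and 2 lower than Naive cells, against 25.0% and 21.3% of all tested genes. Mitosis members rose in 17 of 18 cases (median log2 fold change 2.94), the exception being Stmn1 (15.5 ± 0.412 CPM in Naive, 11.98 ± 4.27 CPM in Anergic, log2 fold change -0.38, adjusted p = 0.0829). Without Anergic replicate 3 the Stmn1 difference was -0.70 (adjusted p = 0.00089), and it also passed with total-count scaling (0.0306). Among replication members 10 of 17 rose and Cdt1 and Pcna fell (median 0.53). Mki67 was 84.3, 89.7 and 131.4 CPM in Anergic libraries, each above every Naive library (log2 fold change 4.87 ± 0.188, adjusted p = 3.17e-16). Tpx2 reached 9.92 ± 3.98 CPM (4.13 ± 0.370, adjusted p = 1.79e-09), Top2a rose by 3.03 ± 0.146 on the log2 scale (adjusted p = 1.99e-14), and Bub1 had a ratio of 27.7 (95% interval 4.62 to 1128, adjusted p = 0.000453). Mcm6 rose most among the helicase subunits, to 158.3, 145.8 and 158.5 CPM (log2 fold change 1.40 ± 0.0694, adjusted p = 3.31e-14).

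Cdt1, the origin licensing factor, was 24.4, 26.5 and 27.9 CPM in Naive and 22.7, 17.4 and 19.04 CPM in Anergic libraries, with no overlap (log2 fold change -0.41 ± 0.116, adjusted p = 0.00528). Pcna was 56.2, 57.2 and 61.6 CPM in Anergic libraries, below the 64.4 to 77.8 CPM of Naive libraries (-0.24 ± 0.0915, adjusted p = 0.0323). Without Naive replicate 1 the adjusted p of Pcna was 0.22, without Anergic replicate 1 it was 0.0834 and without Anergic replicate 2 it was 0.0849. Mcm3 rose by 0.19 ± 0.0737 on the log2 scale (adjusted p = 0.0344), a call lost without Naive replicate 1 (0.154), Naive replicate 2 (0.0761), Anergic replicate 2 (0.0605) or Anergic replicate 3 (0.142), and with total-count scaling (0.162), DESeq2 (0.0682), no filter (0.0927) or only the compared subsets (0.0534). The Ccne2 call was lost without Naive replicate 2 (0.0925). Mcm2 passed as lower without Anergic replicate 3 (0.048) and Mcm4 as higher without Anergic replicate 1 (0.0458). The count of lower members was 1 without Naive replicate 1, Anergic replicate 1 or Anergic replicate 2, and 4 without Anergic replicate 3.

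Treg cells had 27 members higher and 1 lower than Naive cells, against 19% and 13.9% of all tested genes, and with total-count scaling the calls over all genes turned from 2538 higher and 1858 lower to 2925 and 1126. Again 17 of 18 mitosis members rose (median log2 fold change 2.79), and 10 of 17 replication members (median 0.54). Mki67 was 63.5, 70.6 and 67.8 CPM in Treg libraries (log2 fold change against Naive 4.27 ± 0.195, adjusted p = 1.22e-14), and Top2a was 48.1, 51.7 and 52.2 CPM (2.62 ± 0.150, adjusted p = 8.71e-13). Tk1, between 6.20 and 8.81 CPM in Teff libraries, was 7.38, 9.38 and 7.29 CPM (4.08 ± 0.388, adjusted p = 7.93e-09). Bub1 had a ratio of 39.2 (95% interval 6.69 to 1579, adjusted p = 9.70e-05). Mcm6 rose by 0.96 ± 0.0700 on the log2 scale (adjusted p = 7.34e-11) and Mcm3 by 0.32 ± 0.0728 (adjusted p = 0.00111), while Pcna differed by -0.04 ± 0.0899 (adjusted p = 0.804). Mcm7 rose by 0.25 ± 0.0803 (adjusted p = 0.02), a call lost without Naive replicate 1 (0.0761), Naive replicate 2 (0.0519), Treg replicate 1 (0.0598) or Treg replicate 3 (0.0949) and with DESeq2 (0.0571). Cdt1 fell by 0.33 ± 0.115 (adjusted p = 0.0297), a call lost with total-count scaling (0.162) and without Naive replicate 2 (0.0754), Naive replicate 3 (0.105), Treg replicate 2 (0.0696) or Treg replicate 3 (0.124). The count of lower members was 0 in each of these. Ccnb1 was lost without Naive replicate 2 (0.0813) or Treg replicate 3 (0.0563), and Plk1 without Naive replicate 2 (0.0527). Mcm2 passed as lower with only the compared subsets (0.027), and Mcm4 as higher with total-count scaling (0.0197).

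Anergic against Teff cells compares the 2 FOXP3-negative CD44high subsets. Mitosis genes fell in Anergic cells: 14 of 18 were lower and 0 higher, with a median log2 fold change of -0.70 against 0.00 over all tested genes (0 higher also at an unadjusted p under 0.05, by edgeR and by DESeq2). Replication members moved less, with 7 of 17 lower, 1 higher and a median of -0.29. Over all 35 members 21 were lower and 1 higher, against 12.7% and 13.9% of all tested genes. With total-count scaling 25 members were lower and 1 higher, and the calls over all genes turned from 1864 higher and 1702 lower to 1218 higher and 2276 lower. With each library left out in turn the lower count was 14 (without Teff replicate 3) to 20, and 12 of the 21 lower calls held under every alternative run. For 18 of the 22 called members the libraries of the 2 subsets did not overlap, which again is no separate support. Its share over all genes was not computed here either.

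Of the 5 mitotic entry members, 2 cyclins fell. Ccnb2, a cyclin B that activates CDK1, was 8.81, 4.71 and 11.6 CPM in Teff and 1.53, 3.40 and 4.13 CPM in Anergic libraries, without overlap (log2 fold change -1.48 ± 0.338, adjusted p = 0.00175). Ccna2, cyclin A2, was 10.2 ± 1.23 CPM in Teff and 4.42 ± 1.40 CPM in Anergic libraries (adjusted p = 0.00054). Its exons overlap those of Exosc9 on the other strand over 12.5% of their length. Ccnb1 (2.82 ± 0.345 against 1.87 ± 0.771 CPM), Cdk1 (5.23 ± 0.412 against 3.55 ± 1.03 CPM) and the kinase Plk1 (4.69 ± 1.29 against 3.63 ± 1.34 CPM) did not pass.

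Of the spindle and kinetochore members 8 of 9 fell. Birc5 (survivin, of the chromosomal passenger complex) was 8.46, 9.05 and 8.03 CPM in Teff and 2.59, 2.35 and 4.92 CPM in Anergic libraries (log2 fold change -1.39 ± 0.278, adjusted p = 0.000461). Its partner kinase Aurkb was 4.29, 4.21 and 4.08 CPM against 1.65, 1.64 and 2.26 CPM (adjusted p = 0.00921). In both genes every Anergic library was below every Teff library. Bub1 was 3.48, 2.11 and 4.08 CPM against 1.76, 1.41 and 0.532 CPM (-1.35 ± 0.437, adjusted p = 0.0233), a call lost without Teff replicate 1 (0.0639), Teff replicate 3 (0.108) or Anergic replicate 3 (0.115). The kinetochore motor Cenpe was 18.4, 24.3 and 26.3 CPM in Teff and 12.1, 13.6 and 17.3 CPM in Anergic libraries, without overlap (adjusted p = 0.00259). Cenpf fell from 19.6 ± 3.49 to 10.6 ± 2.18 CPM, Bub1b from 14.3 ± 1.54 to 9.77 ± 1.23 CPM, Tpx2 from 16.02 ± 3.17 to 9.92 ± 3.98 CPM and Stmn1 from 23.6 ± 3.19 to 11.98 ± 4.27 CPM. Kif20a, a cytokinesis motor, did not pass at 8.33 ± 0.758 against 7.14 ± 1.89 CPM, and 29.3% of its exon length overlaps Cdc23 on the other strand. The Bub1b call was lost without Teff replicate 3 (0.0942) or Anergic replicate 1 (0.0813), and the Tpx2 call without Teff replicate 3 (0.106), Anergic replicate 1 (0.0866) or Anergic replicate 2 (0.0634).

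Both ubiquitin ligase members fell, Ube2c from 5.52 ± 1.09 to 2.45 ± 1.16 CPM and Cdc20 from 7.02 ± 0.695 to 4.30 ± 0.872 CPM. Ube2c shares 22.8% of its exon length with Tnnc2 on the other strand. The Ube2c call was lost without Anergic replicate 2 (0.0591). The Cdc20 call was lost with DESeq2 (0.0627) and without Teff replicate 2 (0.117), Teff replicate 3 (0.0711), Anergic replicate 1 (0.157) or Anergic replicate 2 (0.0517). Mki67 was 129.8, 141.9 and 160.3 CPM in Teff and 84.3, 89.7 and 131.4 CPM in Anergic libraries, where Anergic replicate 3 lay above Teff replicate 1 (log2 fold change -0.50 ± 0.112, adjusted p = 0.00137). Top2a overlapped too, with 62.7, 57.7 and 82.8 CPM in Anergic libraries against 71.9, 90.7 and 87.5 CPM (-0.30 ± 0.106, adjusted p = 0.0361). The Top2a call was lost without Teff replicate 2 (0.139), Teff replicate 3 (0.124), Anergic replicate 1 (0.113) or Anergic replicate 2 (0.215), with DESeq2 (0.0537) and with only the compared subsets (0.0722).

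Replication members lower in Anergic than in Teff cells were Mcm3, Mcm5, Cdc6, Cdt1, Pcna, Rrm2 and Tk1. Cdc6, the helicase loader, was 7.07, 6.57 and 3.82 CPM in Teff and 1.65, 2.23 and 3.19 CPM in Anergic libraries, which did not overlap (adjusted p = 0.00183). Tk1 was 8.81, 6.20 and 6.50 CPM against 4.12, 2.82 and 1.73 CPM (adjusted p = 0.000844), and Rrm2 was 15.4 ± 3.33 against 7.31 ± 2.83 CPM (adjusted p = 0.000779). Both nucleotide genes were lower in every Anergic library than in any Teff library. Mcm3 (81.0 ± 4.78 against 64.8 ± 3.46 CPM), Mcm5 (49.6 ± 7.12 against 39.5 ± 4.43 CPM) and Cdt1 (25.01 ± 1.93 against 19.7 ± 2.73 CPM) fell as well. The Mcm5 call was lost without Teff replicate 2 (0.0842), Teff replicate 3 (0.179), Anergic replicate 1 (0.139) or Anergic replicate 2 (0.0552). For Cdt1 the call was lost without Teff replicate 1 (0.113), Teff replicate 2 (0.0632), Anergic replicate 2 (0.151) or Anergic replicate 3 (0.0772), with DESeq2 (0.0539) and with only the compared subsets (0.0549). Pcna fell by 0.29 ± 0.0904 on the log2 scale (adjusted p = 0.0185), a call lost without Teff replicate 3 (0.0813), Anergic replicate 1 (0.0537) or Anergic replicate 2 (0.059). Not passing were Mcm2, Mcm4 (94.1 ± 6.29 against 85.3 ± 5.36 CPM), Mcm7, Gins2 (3.27 ± 0.946 against 3.33 ± 0.867 CPM), Tyms, Rrm1, Hells, Ccne1 (5.94 ± 1.48 against 3.29 ± 0.621 CPM) and Ccne2 (1.92 ± 0.921 against 1.75 ± 0.0187 CPM). Some of these passed as lower under an alternative: Hells without Teff replicate 1 (0.0142) or Anergic replicate 2 (0.0183), with total-count scaling (0.022) and with no filter (0.0113). Ccne1 passed with total-count scaling (0.0307), no filter (0.0124) and only the compared subsets (0.0283), and Mcm2 (0.0493) and Mcm4 (0.0221) with total-count scaling. Gins2 shares 67.3% of its exon length with Gse1 on the other strand and Ccne2 17.4% with Ints8. The strand setting of the counting is not given, so reads of these pairs cannot be told apart.

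Mcm6 went the other way. It was 103.3, 114.0 and 111.9 CPM in Teff, 111.6, 119.3 and 109.6 CPM in Treg and 158.3, 145.8 and 158.5 CPM in Anergic libraries, so each Anergic library was above every other library. Against Teff the log2 fold change was 0.49 ± 0.0652 (adjusted p = 2.45e-06) and against Treg 0.44 ± 0.0649 (adjusted p = 8.11e-06), and both calls held under every alternative run. Its protein works in a ring with the other MCM subunits, of which Mcm3 and Mcm5 fell and Mcm2, Mcm4 and Mcm7 did not pass between Anergic and Teff cells. Per kilobase of exon, Mcm6 was 1.14 times the median of the other 5 MCM genes in Naive libraries (range 1.10 to 1.19), 1.91 times in Teff (1.72 to 2.10), 1.90 times in Treg (1.73 to 2.13) and 3.14 times in Anergic libraries (2.95 to 3.44). Its share of the 6 genes was 16.2 ± 0.814% in Naive, 22.3 ± 0.560% in Teff, 24.2 ± 1.34% in Treg and 31.7 ± 1.70% in Anergic libraries. These ratios lie within a library and do not depend on its scaling.

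**Figure D4:**
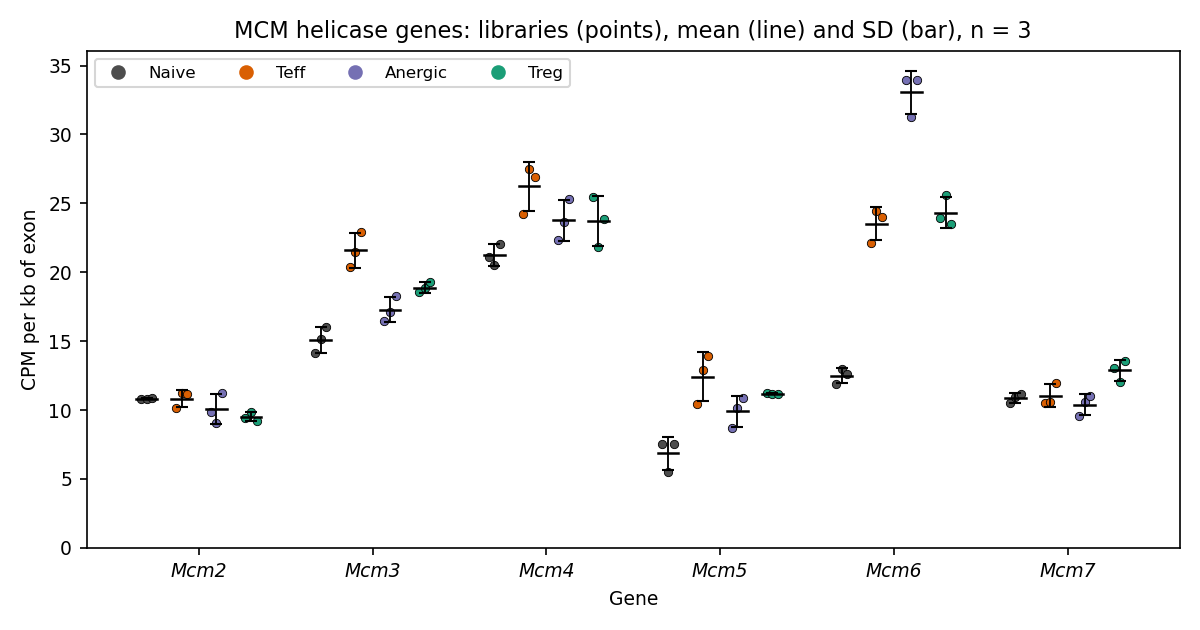
Level of the 6 MCM helicase genes per kilobase of exon by subset (points, libraries; lines, mean; bars, SD), from 0. Mcm6 stands at 31.3 to 34.0 CPM per kb in Anergic libraries against 11.9 to 12.96 in Naive libraries, while Mcm2 and Mcm7 stay between 9.08 and 13.6 in all libraries.

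The members with E2F letters did not share a direction. Of the 7, Mcm6 was higher in Anergic than in Teff cells, Mcm3, Mcm5, Cdc6 and Cdt1 were lower, and Mcm7 and Hells did not pass. Of the 10 members with CHR letters, 7 were lower (Ccnb2, Bub1b, Cenpf, Ube2c, Cdc20, Mki67 and Top2a), and Mcm2, Cdk1 and Plk1 did not pass. Over all tested genes 12.7% were lower and 13.9% higher. Mitosis members without CHR letters in their window fell too (Bub1, Birc5 and Cenpe), while Ccnb1 did not pass. Of mitosis members with no matched window, Ccna2, Aurkb, Tpx2 and Stmn1 were lower and Kif20a did not pass. Whether the letters go with the lower levels was not tested. Few mitosis members with a matched window lack them, and only exact letters were searched. The Mcm6 and Cdc6 windows printed above both hold E2F letters, and these genes moved oppositely in this comparison.

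Treg against Teff cells gave 17 members lower and 1 higher, against 14.1% and 15% of all tested genes. Here too the mitosis members led, with 13 of 18 lower and 0 higher (median log2 fold change -0.85, 0 higher also at an unadjusted p under 0.05 by edgeR and by DESeq2), and 4 of 17 replication members were lower (median -0.19). This comparison shares the Teff libraries with the one above, so the 2 are not independent. Mki67 did not overlap between Treg and Teff libraries (log2 fold change -1.10 ± 0.115, adjusted p = 4.91e-08), nor did Top2a (-0.72 ± 0.108, adjusted p = 1.09e-05). Ccnb1, cyclin B1, was 0.707, 1.01 and 1.18 CPM in Treg against 2.44, 3.10 and 2.93 CPM in Teff libraries (-1.54 ± 0.393, adjusted p = 0.00383). Cdc6 was 2.93, 2.28 and 2.12 CPM (-1.24 ± 0.297, adjusted p = 0.00219) and Birc5 3.84, 3.67 and 3.88 CPM (-1.16 ± 0.269, adjusted p = 0.00169), each below every Teff library. Cdk1 fell from 5.23 ± 0.412 to 2.57 ± 0.468 CPM, Cenpe to 10.8 ± 0.224 CPM and Hells from 31.8 ± 6.69 to 19.8 ± 1.96 CPM.

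Several members did not pass the test between Treg and Teff cells. Mcm6 differed by 0.05 ± 0.0659 on the log2 scale (adjusted p = 0.648), Pcna by -0.08 ± 0.0888 (adjusted p = 0.545) and Tk1 by 0.15 ± 0.242 (adjusted p = 0.7). Bub1b was 13.4 ± 1.15 CPM in Treg against 14.3 ± 1.54 CPM in Teff libraries and Kif20a 8.32 ± 1.52 against 8.33 ± 0.758 CPM. Mcm2 and Rrm2 also missed the threshold and passed as lower under some alternatives, Mcm2 without Teff replicate 1 (0.0295), with DESeq2 size factors (0.0497) or with only the compared subsets (0.0431). Rrm2 passed without Teff replicate 1 (0.0137) or Treg replicate 1 (0.0386), with DESeq2 size factors (0.0496), no filter (0.00882) or only the compared subsets (0.0166). Rrm1 fell by 0.38 ± 0.0930 (adjusted p = 0.00245). Mcm7, the only member higher in Treg cells, was 57.7, 53.2 and 60.1 CPM against 46.6, 47.0 and 53.0 CPM (0.22 ± 0.0792, adjusted p = 0.0357). Its call was lost without Teff replicate 1 (0.149), Teff replicate 2 (0.13), Treg replicate 1 (0.103) or Treg replicate 3 (0.164), with DESeq2 size factors (0.051), DESeq2's test (0.105) or no filter (0.108), which left 0 members higher. The Mcm3 call (-0.19 ± 0.0698, adjusted p = 0.0402) was lost without Teff replicate 2 (0.062), Teff replicate 3 (0.187), Treg replicate 1 (0.108), Treg replicate 2 (0.0815) or Treg replicate 3 (0.0626), and with total-count scaling (0.145), DESeq2 (0.0556) or no filter (0.0769). The Ccnb2 call was lost with total-count scaling (0.0534) and without Teff replicate 1 (0.0948), Teff replicate 3 (0.287) or any single Treg library (0.0647 to 0.126). The Ube2c call was lost without Teff replicate 1 (0.103), Teff replicate 3 (0.07), Treg replicate 1 (0.0628) or Treg replicate 2 (0.11). The Cdc20 call was lost with total-count scaling (0.0518) or DESeq2 (0.0533), and without Teff replicate 2 (0.113), Teff replicate 3 (0.0665), Treg replicate 1 (0.0737) or Treg replicate 2 (0.185).

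Anergic against Treg cells gave 4 members higher and 3 lower, against 15.6% and 15.3% of all tested genes, so the members' shares (11.4% and 8.57%) did not exceed the background. With total-count scaling, which moved the median of all genes by -0.13, 3 members were higher and 8 lower, and the calls over all genes turned from 2096 higher and 2054 lower to 1324 and 3027. The count of higher members was 7 without Anergic replicate 1, and that of lower members 2 to 4 over the libraries left out. All 7 called members had libraries that did not overlap. Over all 35 members, called or not, 7 had every Anergic library above every Treg library and 7 had every one below. The share of all tested genes without overlap was not computed, so these counts have no background to be read against. They come from the same libraries as the test and are no separate support. Mki67 was 84.3, 89.7 and 131.4 CPM in Anergic against 63.5, 70.6 and 67.8 CPM in Treg libraries (log2 fold change 0.59 ± 0.117, adjusted p = 0.000304). Top2a was 62.7, 57.7 and 82.8 CPM against 48.1, 51.7 and 52.2 CPM (0.42 ± 0.109, adjusted p = 0.00472), a call lost without Anergic replicate 3 (0.0621). Rrm1 was 38.9, 46.3 and 48.1 CPM against 36.7, 32.8 and 35.1 CPM (0.34 ± 0.0933, adjusted p = 0.00594), a call lost with total-count scaling (0.124).

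Tk1 was lower in Anergic than in Treg cells, at 4.12, 2.82 and 1.73 CPM against 7.38, 9.38 and 7.29 CPM (-1.45 ± 0.271, adjusted p = 0.000174). Mcm7 fell by 0.31 ± 0.0797 (adjusted p = 0.00374). Bub1b was 8.35, 10.5 and 10.5 CPM against 13.1, 14.7 and 12.5 CPM (-0.46 ± 0.171, adjusted p = 0.0437), and its call was lost without any single Anergic or Treg library (0.0523 to 0.167), with DESeq2 (0.0746) and with no filter (0.0514). Pcna missed the threshold (-0.21 ± 0.0903, adjusted p = 0.0857) and passed it with Treg replicate 2 left out (0.0423) and with total-count scaling (0.00984). Without Anergic replicate 3, Rrm2 (0.00801) and Stmn1 (0.0279) passed as lower. Without Anergic replicate 1, Hells (0.0186), Cenpe (0.0402) and Ccnb1 (0.0418) passed as higher. Rrm2 (0.0234), Mcm3 (0.0128), Mcm5 (0.03) and Aurkb (0.0435) passed as lower with total-count scaling, and Rrm2 with no filter (0.039). Without Mki67 and Top2a the other mitosis members summed to 93.4 ± 22.5 CPM in Anergic and 99.1 ± 0.916 CPM in Treg libraries. With them the sums were 262.9 ± 60.6 and 217.0 ± 6.42 CPM.

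**Figure D5:**
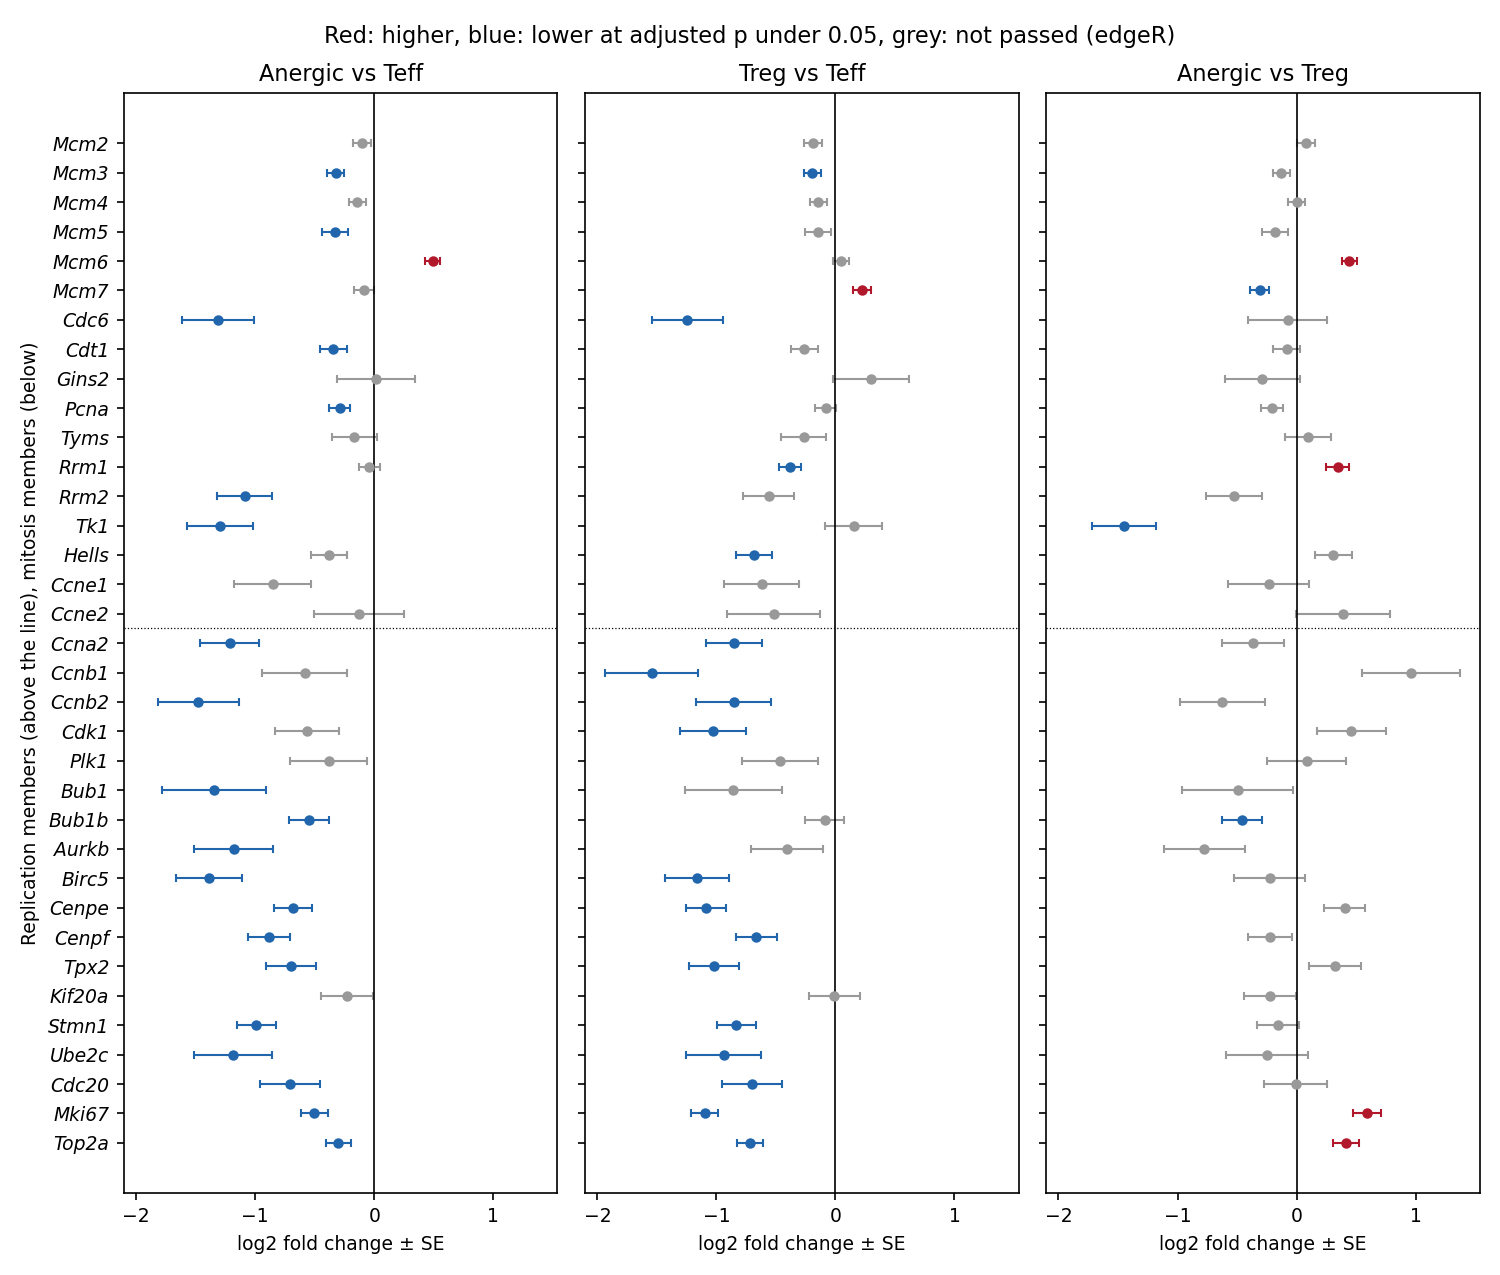
log2 fold change ± SE of each member in 3 comparisons, red where higher, blue where lower and grey where the test was not passed. Most mitosis members lie left of 0 against Teff cells, and Mcm6 lies right of 0 in both Anergic panels but not in the Treg against Teff panel.

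Anergic libraries varied more than the Teff and Treg libraries in the mitosis members. The median coefficient of variation of these genes was 30.4% in Anergic, 12.2% in Teff and 9.52% in Treg libraries, and 39.8% in Naive libraries, where levels were lowest. Summed mitosis levels were 221.8, 234.3 and 332.5 CPM in the 3 Anergic libraries. Anergic replicate 3 was the highest of them for 28 of 35 members, but for 16 of 35 with total-count scaling, an alternative added after the levels were seen. Without it the Anergic mean of the mitosis sum was 228.1 CPM, 0.582 times the Teff mean against 0.671 times with it, and 1.05 times the Treg mean against 1.21 times. Leaving out Mki67 and Top2a, the other mitosis members averaged 80.9 CPM in Anergic replicates 1 and 2. That was 0.491 times the Teff mean and 0.817 times the Treg mean, against 0.567 and 0.943 times with replicate 3. The library's low TMM factor and the high mitochondrial ribosomal RNA of the Anergic libraries move with these values, and their part in the result was not tested.

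Markers of other cell types differed between the subsets as well. A list of 4 NK cell genes summed to 44.0 to 65.6 CPM in Teff, 18.6 to 25.6 CPM in Anergic, 5.10 to 5.45 CPM in Naive and 3.94 to 5.32 CPM in Treg libraries. Klrb1c averaged 38.9 CPM in Teff and 4.75 CPM in Anergic libraries. Eomes went the other way, at 14.1 CPM in Teff and 15.9 CPM in Anergic libraries, and did not pass between them. Gzma averaged at most 0.646 CPM in any subset, and the NK receptor Ncr1 had 10 counts or fewer over all libraries. A list of 7 B cell genes summed to 180.3 to 196.6 CPM in Teff, 220.0 to 282.4 CPM in Anergic, 197.7 to 226.2 CPM in Naive and 408.2 to 498.4 CPM in Treg libraries, most of it Ighm. A list of 5 plasma cell genes summed to 0.744 to 1.79 CPM in Naive, 5.21 to 8.67 CPM in Teff, 4.23 to 6.94 CPM in Anergic and 3.88 to 6.06 CPM in Treg libraries. A list of 7 myeloid genes summed to 3.58 to 5.31 CPM in Naive, 9.94 to 10.7 CPM in Teff, 5.06 to 9.18 CPM in Anergic and 3.64 to 6.77 CPM in Treg libraries. As sums, the NK and myeloid lists were higher in every Teff library than in any other library, as the mitosis sum was. Single genes of these lists did not all follow the sum. Of the myeloid genes, Lyz2 averaged 5.65 CPM in Teff and 3.38 CPM in Anergic libraries, and Csf1r 2.74 and 2.83 CPM. Itgam was highest in Naive libraries, at 2.36 CPM against 0.736 CPM in Teff libraries. The other myeloid genes averaged at most 0.750 CPM in any subset. The plasma cell list overlapped between Teff, Anergic and Treg libraries. The CD8 T cell genes summed to 3.71 to 17.1 CPM and 9 T cell identity genes to 2735 to 4754 CPM, highest in the Anergic libraries. The part of the NK, B, plasma and myeloid cell genes in the members' differences was not tested.

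Of 42 other replication genes, 17 were higher and 2 lower in Teff than in Naive cells (median log2 fold change 0.31), 16 and 3 in Anergic (0.22) and 17 and 4 in Treg cells (0.21). Over all tested genes the shares higher and lower than in Naive cells were 19.2% and 15.7% in Teff, 25.0% and 21.3% in Anergic and 19% and 13.9% in Treg cells. Uhrf1, which carries DNA methylation through replication, went from 2.91 ± 0.638 CPM in Naive to 26.6 ± 4.79 CPM in Teff, 15.8 ± 3.04 CPM in Anergic and 19.4 ± 1.42 CPM in Treg libraries. Clspn, an adaptor of the replication checkpoint, went from 0.937 ± 0.317 CPM in Naive to 13.9 ± 3.92 CPM in Teff and 7.44 ± 0.881 CPM in Treg libraries, and Lig1, the ligase of Okazaki fragments, from 22.9 ± 1.98 CPM in Naive to 44.6 ± 7.38 CPM in Anergic libraries. Timeless, of the fork protection complex, was highest in Naive cells at 53.9 ± 3.22 CPM in Naive, 25.3 ± 2.65 CPM in Teff, 25.5 ± 0.495 CPM in Anergic and 38.8 ± 2.15 CPM in Treg libraries, as did Pole2, a polymerase epsilon subunit, at 8.28 ± 1.42, 3.21 ± 0.571, 1.87 ± 0.834 and 2.91 ± 0.231 CPM. Against Teff, 7 of these genes were lower and 0 higher in Anergic cells (median -0.12, 0 higher also at an unadjusted p under 0.05 by edgeR and by DESeq2), among them Uhrf1 (adjusted p = 0.000372) and the fork factor Mcm10 (2.07 ± 0.696 against 6.13 ± 0.591 CPM, adjusted p = 0.000475). The 7 stand near the 12.7% of all tested genes that were lower. They became 4 without Teff replicate 3 or Anergic replicate 1, with DESeq2 or with only the compared subsets, and 11 with total-count scaling. In Treg against Teff cells 2 were higher (Timeless and Gins4) and 8 lower, with Pola1 and Dbf4 the clearest, where all tested genes had 15% higher and 14.1% lower. The 8 became 4 or 5 without Teff replicate 2, Teff replicate 3, Treg replicate 1 or Treg replicate 3 and with total-count scaling. The 2 became 1 with DESeq2, its size factors or no filter, and without any single Teff library, Treg replicate 1 or Treg replicate 2. Between Anergic and Treg cells 3 were higher and 3 lower, below the 15.6% and 15.3% of all tested genes. The higher count became 1 without Anergic replicate 3, Treg replicate 2 or Treg replicate 3 and with no filter, and 0 with total-count scaling. The lower count became 5 without Anergic replicate 3 and 6 with total-count scaling.

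Of 47 tested other mitosis genes, 40 were higher and 1 lower in Teff than in Naive cells (median 2.09), 37 and 1 in Anergic (1.43) and 32 and 0 in Treg cells (1.31, 0 lower also at an unadjusted p under 0.05 by edgeR and by DESeq2). Kif15, a spindle motor, went from 0.721 ± 0.256 CPM in Naive to 12.6 ± 0.633 CPM in Teff, 18.5 ± 0.721 CPM in Anergic and 8.80 ± 1.41 CPM in Treg libraries, so that it was higher in Anergic than in Teff cells (adjusted p = 0.00577). Cdc25b, a phosphatase that activates CDK1, was 21.2 ± 2.79, 71.6 ± 4.19, 58.8 ± 3.79 and 31.4 ± 1.04 CPM in the same order, and Lmnb1, of the nuclear lamina, rose from 68.0 ± 3.40 CPM in Naive to 111.1 ± 3.12 CPM in Treg libraries. Smc4, a condensin subunit, was highest in Treg cells, at 608.5 ± 31.8 CPM in Naive, 337.7 ± 30.4 CPM in Teff, 628.7 ± 71.9 CPM in Anergic and 1008 ± 32.4 CPM in Treg libraries (Treg against Teff adjusted p = 1.02e-13). Against Teff, 2 were higher (Smc4 and Kif15) and 13 lower in Anergic cells (median -0.43), including Kif22 and Cdca8, where all tested genes had 13.9% higher and 12.7% lower. The 13 became 8 without Teff replicate 3, Anergic replicate 1 or Anergic replicate 2. In Treg cells 1 was higher (Smc4) and 27 lower than in Teff cells (median -0.66), including Cdc25b and Incenp, against 15% and 14.1% of all tested genes. The 27 became 16 or 17 without Teff replicate 2, Teff replicate 3 or any single Treg library. Between Anergic and Treg cells 7 were higher, led by Cdc25b and Incenp (62.8 ± 0.895 against 44.3 ± 1.09 CPM), and 2 lower, Smc4 and Kifc1, against 15.6% and 15.3% of all tested genes. With total-count scaling 4 were lower.

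Of 20 E2F, DREAM and MuvB regulators, 9 were higher and 1 (Lin54) lower in Teff than in Naive cells, 8 and 1 (Lin54) in Anergic and 11 and 0 in Treg cells (1 lower at an unadjusted p under 0.05, by edgeR and by DESeq2). The shares over all tested genes were the 19.2% and 15.7%, 25.0% and 21.3%, and 19% and 13.9% given above. Without Treg replicate 1 the count lower in Treg cells was 1. E2f2, an activating E2F, was 14.4 ± 1.38 CPM in Naive, 30.9 ± 1.36 CPM in Teff, 15.9 ± 1.60 CPM in Anergic and 31.6 ± 2.99 CPM in Treg libraries, lower in Anergic cells than in Teff (adjusted p = 3.89e-07) and Treg cells (adjusted p = 1.56e-07). Rbl2, which encodes the DREAM pocket protein p130, was 114.7 ± 10.7, 267.7 ± 18.5, 188.1 ± 16.3 and 160.8 ± 2.14 CPM in the same order. Against Teff, Anergic cells had 2 regulators higher, Tfdp2 and Rb1 (67.1 ± 4.91 against 53.5 ± 4.43 CPM), and 6 lower, against 13.9% and 12.7% of all tested genes, so that the higher count does not exceed the background. With total-count scaling 1 was higher. Treg cells had Rb1 higher and 3 lower than Teff cells, against 15% and 14.1% of all tested genes, with Rbl2 and E2f8 (2.76 ± 0.238 against 5.92 ± 1.15 CPM) the clearest. Foxm1, which drives late mitosis genes, was 3.99 ± 0.758 CPM in Anergic and 6.79 ± 0.667 CPM in Treg libraries (adjusted p = 0.01), Tfdp1 rose from 18.8 ± 1.68 CPM in Naive to 31.4 ± 1.05 CPM in Treg libraries, and E2f3 from 1.96 ± 0.584 CPM in Naive to 9.24 ± 1.83 CPM in Anergic libraries.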

How the data were processed

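Total RNA libraries were made with a Takara stranded Pico input kit, per the labels' protocols. The deposited values are raw read counts per gene, which the authors made with HISAT2 and featureCounts on GRCm38 (mm10), per the submitters' processing notes. For the counting, neither the annotation nor the strand setting is given in the sources used here. The main test was edgeR (4.0.16, R 4.3.3) quasi-likelihood, two-sided, on TMM-scaled counts kept by filterByExpr, with a mean for each subset over 12 libraries. Benjamini-Hochberg adjustment ran over 13393 genes with a threshold of 0.05. A standard error is the absolute log2 fold change over the root of F. edgeR's common dispersion corresponded to a coefficient of variation of 0.0764 between replicates. Exon lengths and overlaps came from GENCODE M21. Alternatives were DESeq2 1.42.0, its size factors, total-count scaling, no filter, only the compared subsets, a replicate block and each library left out. Replicates differed by more than sampling noise. The members, gene lists and tests were chosen with earlier results of these data known. All members are named with their level, and full statistics go to Mki67, Top2a, Pcna, Mcm6 and the 3 highest and 3 lowest changes among called members of each comparison. Of each pathway list up to 2 called genes a direction with the smallest adjusted p are named.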

Additional observations from a re-analysis of the deposited data

How the results depend on the processing

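None of the members' log2 fold changes that passed the test changed sign under the alternatives run. Most counts of called members stayed within 1.5 times of those reported, and the exceptions follow. For members lower in Anergic than in Treg cells (3), total-count scaling gave 8 and the replicate block 5. For members lower in Treg than in Naive cells (1), total-count scaling gave 0, only the compared subsets 2 and the replicate block 2. The 1 member higher in Treg than in Teff cells became 0 with DESeq2 size factors, DESeq2's test or no filter. The cause of these changes was not tested. For members lower in Anergic than in Naive cells (2), total-count scaling and the replicate block each gave 3, which is still within 1.5 times. Over the libraries left out, members higher in Anergic than Treg cells numbered 3 to 7, lower in Anergic than Treg cells 2 to 4, lower in Anergic than Naive cells 1 to 4, lower in Treg than Naive cells 0 to 1, higher in Treg than Teff cells 0 to 1, and lower in Anergic than Teff cells 14 to 20. Replicate numbers were not taken as pairing the samples, since the labels tie them to no animal, batch or day. The count columns are numbered serially by replicate, with the subsets of each replicate number side by side. Whether same-numbered libraries share an animal or a day is not given. The correlations of deviations in 18 same-numbered pairs ran from -0.0485 to 0.184, with 4 over 0.1. Only that of Teff replicate 2 with Anergic replicate 2 was negative. As a hint from the data, 10 of 12 libraries correlated best with their own number. The replicate block lost 0 member calls and gained 8, all lower: Hells (adjusted p = 0.0111, edgeR) and Ccne1 (0.0379) in Anergic against Teff, Pcna (0.0407) and Rrm2 (0.0497) in Anergic against Treg, Stmn1 (0.0387) in Anergic against Naive, Mcm2 (0.0449) in Treg against Naive, and Rrm2 (0.0391) and Mcm2 (0.0479) in Treg against Teff. Anergic replicate 3 was highest for 28 members, and for 16 with total-count scaling. Depth limits the Naive levels of Bub1 (1 count), Ube2c (4), Ccnb1 (5), Aurkb (5), Cdk1 (7), Gins2 (9) and Tk1 (10).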
